A study of Arabidopsis thaliana with 9 samples.

Results

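Basal cytokinin (CK) was added to auxin-treated cauline buds of Arabidopsis, and its effect on transcript levels was read by comparing the 3 arrays labelled NAA+BA with the 3 labelled NAA. Members were chosen by sample title alone, so that the comparison uses 6 of the 9 arrays of the series and all 22810 probe sets. All buds were wild-type Col-0, from plants 3 to 4 weeks old, and each sat at the first cauline node of an isolated stem segment. By the labels, NAA, a synthetic auxin, was given apically at 1 µM in both groups. The CK BA (6-benzylaminopurine) was given basally at 1 µM in the NAA+BA group only. Each treatment lasted 18 h. The titles call the arrays of a group biological replicates. The remaining 3 arrays, labelled mock, had no hormone by their labels. Their apical side received a small volume fraction of 70% ethanol, the solvent of NAA, and mock treatments of the study used DMSO at the basal side. The mock arrays enter the fit for the estimate of spread, and their values are given for reference. The expression level of a probe set is the log2 value made by robust multi-array averaging (RMA), so that a difference of 1 is a 2-fold difference. Segments were excised and buds were harvested whole, so that more cells of a type and more RNA per cell cannot be told apart.

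CK is perceived by histidine kinase receptors, and the signal passes through phosphotransfer proteins to the type-B response regulators, which are transcription factors. These switch on the type-A response regulator genes (type-A ARRs), whose products feed back to dampen the signal, and genes for CK oxidases, which degrade the hormone. In shoots, CK supplied from below promotes the outgrowth of axillary buds, whereas auxin moving down the stem from the apex holds them back.

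The names of 2 groups are in doubt. The study's supplementary list of changed transcripts (Data S1) can be computed from the deposited values, but only if its ethanol control is the group labelled NAA here. With the mock arrays in that place, the largest departure over its 220 entries was 3.00 (log2), against 2.97e-06 with the NAA arrays. The groups are called by their deposited labels throughout, and under the naming of Data S1 the same comparison would set NAA+BA against buds without hormone. Array medians lay between 6.99 and 7.11. NAA replicate 3 stood apart from its group, with 639 and 548 probe sets at least 2-fold away from NAA replicates 1 and 2, while those 2 arrays differed 2-fold at only 28. Pairs within NAA+BA differed 2-fold at 149 to 194 probe sets.

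In limma's fit over all 9 arrays with Benjamini-Hochberg adjustment, 2 of the 22810 probe sets passed an adjusted p under 0.05 with a change of 2-fold or more. Both were higher with NAA+BA, and they make up 0.00877% of the probe sets. The ranking below them leaned strongly to one side. Of the 50 probe sets with the smallest p, 45 were higher with NAA+BA, and of the first 100, 83 were. A mean difference of 2-fold or more was seen at 46 probe sets that were higher and 6 that were lower. Among these, the 3 arrays of one group did not overlap the 3 of the other at 37 and 1, respectively. Over the whole table, 568 probe sets had an unadjusted p under 0.05, fewer than the 1140.5 that evenly spread p-values would give. The middle of the distribution was narrow, with the 1st and 99th percentiles of the log2 fold change at -0.43 and 0.56 and a median standard error (SE) of 0.16.

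**Figure D1:**
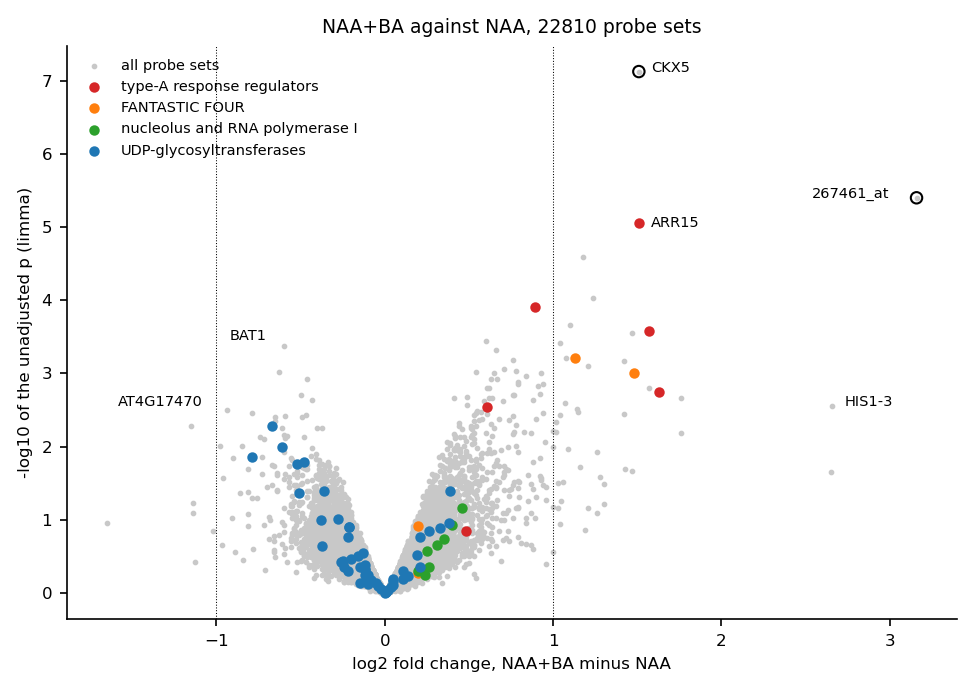
Each point is 1 of 22810 probe sets, with the log2 fold change (NAA+BA minus NAA, 3 arrays each) on the x axis and -log10 of limma's unadjusted p on the y axis; dotted lines mark 2-fold, circles the 2 called probe sets, and colours 4 gene lists. The upper part of the plot lies almost wholly to the right of 0.

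CKX5, which encodes a CK oxidase, had the smallest p. It read 7.28, 7.18 and 7.37 on the NAA arrays, 8.84, 8.82 and 8.71 on the NAA+BA arrays, and 5.35, 5.29 and 5.26 on the mock arrays. The groups were far apart and tight within themselves. CKX5 rose by 1.51 ± 0.11 (log2, n = 3 and 3), or 2.85-fold, with limma's adjusted p at 0.0017. Here and below, ± gives the SE of the fit, whose spread is estimated over all 9 arrays. CKX6, a second CK oxidase gene, read 7.91, 7.90 and 8.27 with NAA and 8.83, 8.40 and 8.47 with NAA+BA, without overlap. Its difference of 0.54 had an unadjusted p of 0.0147 and did not pass adjustment (adjusted p = 0.9996, limma). UGT76C2, whose product attaches glucose to CK bases, differed by 0.39 with overlapping arrays, and its neighbour UGT76C1 by -0.12. Of the 4 members of this list of 11 loci with a named probe set, 2 were thus higher on every NAA+BA array than on any NAA array, where 5.27% of all probe sets were. Both take their names from Data S1 alone, a list chosen on these same arrays, and of its 220 entries 48 (21.8%) were higher without overlap, so that this count is no independent evidence of direction.

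The type-A ARRs were the list with the highest median. A probe set was named for 6 of its 10 loci, and all 6 were higher on average with NAA+BA, where 49.7% of all probe sets were. Their median was 1.2, against 0.00 over all probe sets. ARR15 had rank 3 in the whole table. It read 8.0 on each of the 3 NAA arrays and 9.87, 9.60 and 9.09 on the NAA+BA arrays, from 5.28, 5.20 and 5.04 on mock. Its difference of 1.51 ± 0.18 fell just short of the threshold (adjusted p = 0.0671, limma). With the replicate number as a block on all arrays it passed (adjusted p = 0.0301, limma), but not with the block on the compared arrays alone. ARR7 read 10.12, 9.98 and 10.11 with NAA and 11.22, 11.01 and 10.66 with NAA+BA. Its difference of 0.89 ± 0.15 had an adjusted p of 0.4681 in limma.

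ARR6 and ARR5 had larger differences with larger errors. ARR6 read 6.22, 6.07 and 5.62 with NAA against 8.04, 7.78 and 6.81 with NAA+BA, a difference of 1.57 ± 0.28. ARR5 read 5.03, 4.96 and 4.23 against 6.91, 6.81 and 5.38, a difference of 1.63 ± 0.38, the highest of the list. Neither pair of groups overlapped, and limma's adjusted p was 0.7116 for ARR6 and 0.9996 for ARR5. ARR4 differed by 0.61 ± 0.15, with NAA+BA arrays at 9.54, 9.54 and 9.0 above NAA arrays at 8.76, 8.85 and 8.64. ARR16 was the one member whose arrays overlapped, at 7.96, 7.73 and 6.93 against 8.23, 8.16 and 7.68 (difference 0.48 ± 0.30). All 5 members without overlap had an unadjusted p under 0.05, where 1.67% of all probe sets did in this direction. These 5 are also entries of Data S1, which was drawn from the same arrays, and 4 of them are named here only through it, so that the count is no independent evidence of direction.

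The arrays of the NAA+BA group were not alike. All 6 type-A ARRs had their lowest NAA+BA value on replicate 3, and 5 of the 6 their highest on replicate 1. Set against the mean of the NAA arrays, the list's median was 1.51 on NAA+BA replicate 1, 1.26 on replicate 2 and 0.61 on replicate 3. NAA replicate 3 was low as well, with list medians of 0.15, 0.10 and -0.23 on NAA replicates 1, 2 and 3 and the lowest NAA value of ARR4, ARR5, ARR6 and ARR16. ARR15 was level across the NAA arrays and spanned 0.78 across the NAA+BA arrays. For CKX5 the NAA+BA arrays were close, since its NAA+BA values lay within 0.12 of each other. When NAA+BA replicate 3 was left out, ARR15 (1.73, adjusted p = 0.0064, limma) and ARR6 (1.94, adjusted p = 0.0263) passed the threshold beside CKX5 and the unnamed probe set described below. With both arrays numbered 3 left out, a check added after the data were seen, the same 4 passed and the list's median was 1.40. When any other single array was left out, CKX5 alone passed.

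**Figure D2:**
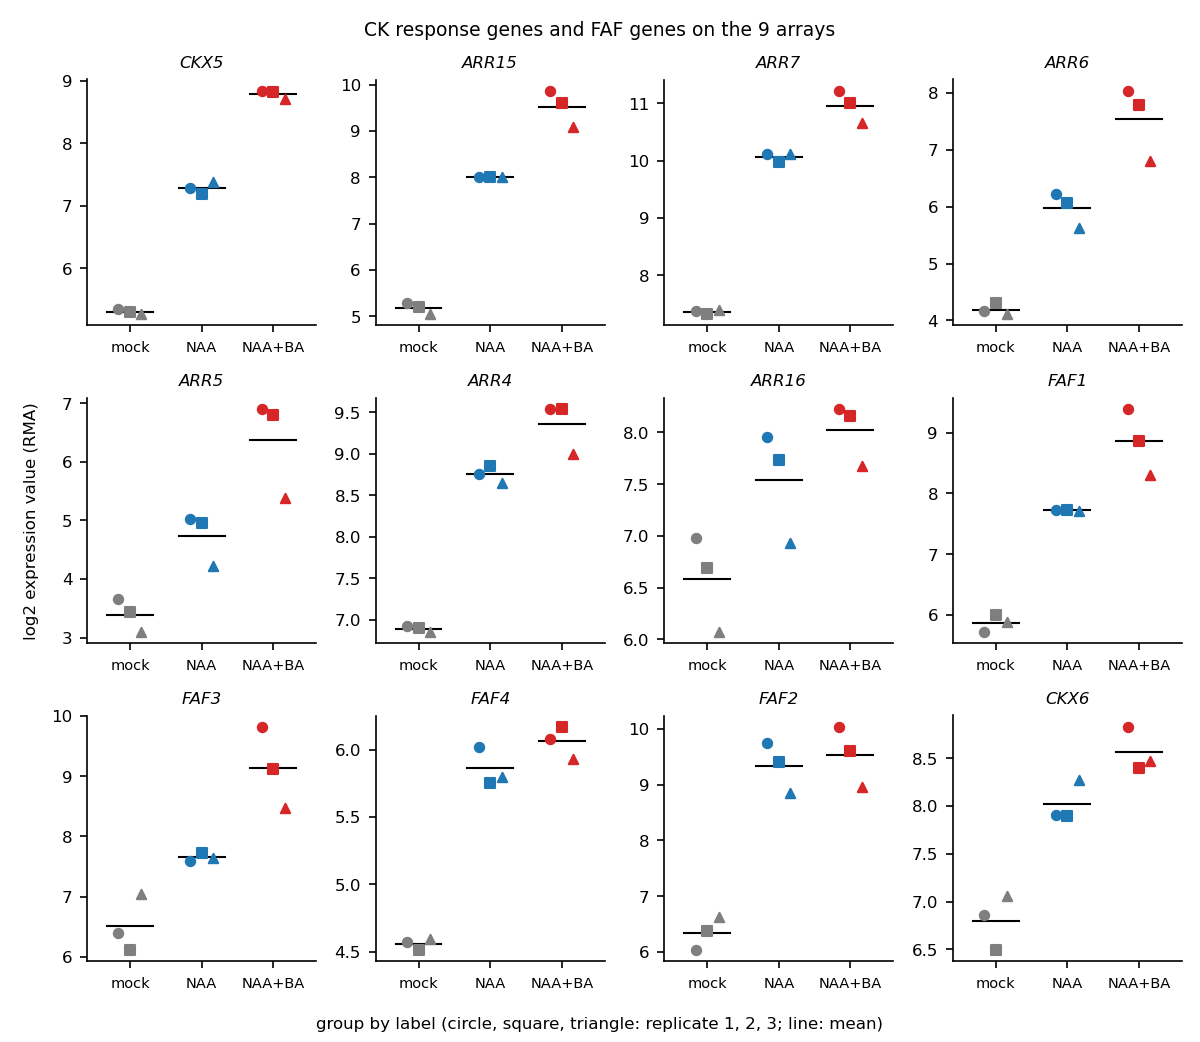
Log2 RMA values (y axis, its own range in each panel) of 12 genes on the mock, NAA and NAA+BA arrays (x axis); symbols mark replicates 1 to 3 and lines the group means. NAA+BA replicate 3 (triangle) is the lowest NAA+BA array in each ARR and FAF panel, and FAF2, FAF4 and ARR16 are the panels in which the NAA and NAA+BA arrays overlap.

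The FAF genes FAF1 to FAF4, a plant family that regulates shoot meristem size, divided into 2 pairs. FAF3 read 7.59, 7.73 and 7.64 with NAA and 9.82, 9.11 and 8.47 with NAA+BA, a difference of 1.48 ± 0.32. FAF1 read 7.73, 7.73 and 7.71 against 9.40, 8.86 and 8.31, a difference of 1.13 ± 0.23. Both were without overlap, with adjusted p at 0.9542 and 0.9006 in limma. Of all probe sets 5.27% were higher without overlap, and of the Data S1 entries 21.8%. FAF4 (0.20 ± 0.12) and FAF2 (0.20 ± 0.30) had overlapping arrays, and FAF2 changed sign when NAA replicate 3 or NAA+BA replicate 1 was left out. FAF2 was already high with NAA, at 9.75, 9.41 and 8.85, where the mock arrays read 6.03, 6.37 and 6.62. As with the ARRs, each of the 4 was lowest within NAA+BA on replicate 3. All 4 are named only through Data S1.

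The second called probe set, 267461_at, has no gene name in the annotation used here. It had the largest difference in the table, from 3.94, 4.56 and 3.73 with NAA to 7.39, 7.94 and 6.39 with NAA+BA. Its NAA values all lay below 5, the level of the filter on dim probe sets, so that the size of the rise is uncertain. The rise of 3.16 ± 0.34, or 8.95-fold, had an adjusted p of 0.0457 in limma, and this call was lost whenever a mock or NAA array or NAA+BA replicate 1 or 2 was left out (adjusted p 0.0865 to 0.4003). Unlike CKX5 and the ARRs, it was highest on the mock arrays, at 11.27, 11.17 and 11.07, so that NAA+BA lay between the other groups.

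Some further named genes, picked from places 9 to 256 of the same ranking, had group means in this order, with mock highest and NAA lowest. CCL, a gene of unknown function named for its likeness to CCR genes, read 8.56, 9.36 and 9.60 with NAA, 10.28, 10.99 and 10.66 with NAA+BA and 13.04, 12.84 and 12.71 on mock. Its difference of 1.47 ± 0.27 was without overlap (adjusted p = 0.7116, limma). HIS1-3, a drought-inducible linker histone gene, read 4.31, 4.72 and 3.61 against 7.83, 7.52 and 5.28, with mock at 11.18, 11.08 and 9.41. The difference of 2.66 was the largest of any named gene, yet its SE of 0.67 put it at rank 53, and NAA+BA replicate 3 was again the lowest array of its group. The NAA values of HIS1-3 also all lay below 5, so that the size of this difference is uncertain. AT2G15960 (1.42 ± 0.29) and AT3G53990 (0.60 ± 0.11) had this order of groups as well, as did AT3G62550 (1.76 ± 0.51). AT1G56300 (2.65 ± 0.98) had nearly equal means with mock (7.64, SD 2.24) and NAA+BA (7.54). In both AT3G62550 and AT1G56300, NAA+BA replicate 3 was the highest array of its group and not the lowest. Other named genes of the ranking were lowest on mock. AT3G59270, at rank 7, had means of 4.88 on mock, 5.55 with NAA and 6.65 with NAA+BA. AT4G27590, at rank 15, had means of 4.70, 5.60 and 6.67 in the same order. These comparisons share the NAA arrays, and the mock values are given only as levels.

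HIS1-3 belongs to the list of abscisic acid and water stress response genes, of whose 21 loci 4 were named. All 4 were higher on average with NAA+BA (median 0.90). COR47, a dehydrin gene, read 7.65, 7.38 and 7.69 against 8.73, 7.94 and 8.38, without overlap (0.77 ± 0.22). The cold-regulated genes COR15B (1.03 ± 0.50) and COR15A (0.63 ± 0.44) had overlapping arrays. Each of the 4 was highest on mock by group mean. None passed adjustment in limma, and 2 had an unadjusted p under 0.05, where 1.67% of all probe sets did in this direction. The same 2, HIS1-3 and COR47, were without overlap, where 5.27% of all probe sets were. The 3 abscisic acid receptor genes named, PYL6, PYL1 and PYL4, lay between -0.12 and 0.20.

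**Figure D3:**
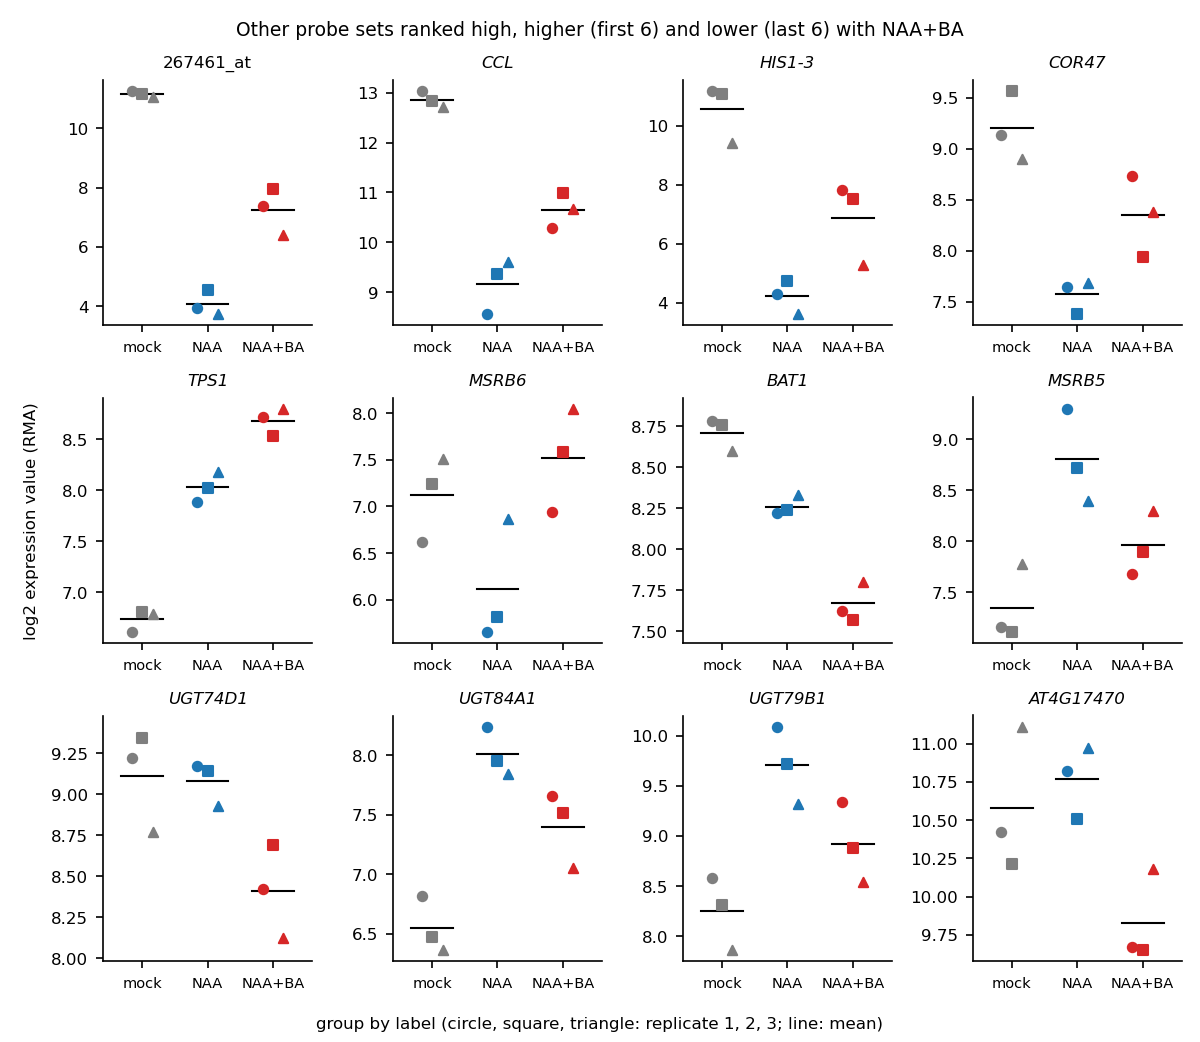
Log2 RMA values (y axis, its own range in each panel) of 12 further probe sets on the mock, NAA and NAA+BA arrays (x axis), 6 with a higher and 6 with a lower NAA+BA mean; symbols mark replicates 1 to 3 and lines the group means. For 267461_at, CCL, HIS1-3 and COR47 the NAA+BA arrays lie between NAA and mock, and for BAT1, UGT74D1 and AT4G17470 they lie below both.

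Of 5 named genes tied to sugar and nitrogen status, 3 had higher and 2 lower means with NAA+BA (median 0.55). TPS1, which encodes trehalose-6-phosphate synthase, ranked 13th, at 7.89, 8.02 and 8.18 with NAA and 8.72, 8.53 and 8.80 with NAA+BA (0.66 ± 0.13, adjusted p = 0.8525, limma). AtPOX, a proline oxidase gene, read 10.76, 10.67 and 10.75 against 11.65, 11.19 and 11.07, and ERD6, a sugar transporter gene, 8.48, 8.72 and 8.60 against 9.34, 8.99 and 9.13. Both were without overlap, with differences of 0.57 ± 0.34 and 0.55 ± 0.38 and unadjusted p of 0.1271 and 0.1774 in limma. These errors include the spread of the mock arrays. AtPOX had an SD of 0.05 with NAA, 0.31 with NAA+BA and 0.84 on mock. For ERD6 the SDs were 0.12, 0.18 and 0.97 in the same order. The other members were SWEET10, a sugar transporter gene (-0.26), and AKINBETA1, of the SnRK1 kinase complex (-0.06). The bZIP gene GBF6 stood at 10.11 on all 3 NAA arrays and at 10.92, 10.79 and 10.51 with NAA+BA (0.64 ± 0.24), the highest difference of 23 bZIP genes. The bZIP list as a whole had a median of -0.02. TPS1, AtPOX, ERD6 and GBF6 are named only through Data S1. The 3 higher genes of sugar and nitrogen status were all without overlap, where 5.27% of all probe sets and 21.8% of the Data S1 entries were higher without overlap. Of the 5 genes of that list, 4 are entries of Data S1, which was drawn from the same arrays.

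The type B methionine sulfoxide reductases, which repair oxidised methionine in proteins, held members at both ends. MSRB6 read 5.65, 5.81 and 6.87 with NAA and 6.94, 7.58 and 8.05 with NAA+BA, a difference of 1.42 ± 0.37. MSRB5 read 9.30, 8.72 and 8.40 against 7.68, 7.90 and 8.30, a difference of -0.85 ± 0.26. Both were without overlap and in opposite directions, although the 2 loci carry neighbouring gene numbers, AT4G04840 and AT4G04830. Neither passed adjustment in the main fit (adjusted p = 0.9996 for each, limma). Of all probe sets, 5.27% were higher and 3.63% lower without overlap. MSRB3 (-0.03) and MSRB9 (0.04) lay near 0, and the median of the 4 was 0.00.

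On the lower side, differences were smaller and none was called by limma, although 188 probe sets (0.824%) were lower at an unadjusted p under 0.05. BAT1, an acyltransferase gene that acts on brassinosteroids, was the best ranked of them, at rank 12. It read 8.22, 8.24 and 8.33 with NAA and 7.62, 7.57 and 7.80 with NAA+BA, with mock at 8.78, 8.76 and 8.60. The difference of -0.60 ± 0.11 was without overlap (adjusted p = 0.8114, limma). AT4G30450 had a difference of -0.63 ± 0.13, and AT5G52780 one of -0.50 ± 0.12. The largest named difference without overlap was that of AT4G17470, with 10.82, 10.51 and 10.97 against 9.67, 9.65 and 10.18 (-0.94 ± 0.24). CP1, a cysteine proteinase gene, read 8.12, 7.95 and 7.65 against 7.30, 7.10 and 7.37 (-0.65 ± 0.17). It is 1 of 61 entries of Data S1, out of 220, whose NAA+BA mean was the lower.

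The UDP-glycosyltransferases (UGTs), enzymes that attach sugars to hormones and secondary metabolites, held the most members on the lower side, but were also the list with the most named members. A probe set was named for 51 of 64 loci, and 34 had a lower and 17 a higher mean with NAA+BA (median -0.12), where 50.3% of all probe sets were lower. At 7 the NAA+BA arrays all lay below the NAA arrays, or 13.7% of the members, where 3.63% of all probe sets did. At none did they lie wholly above, where 5.27% of all probe sets did. UGT74D1, whose product glucosylates auxins, read 9.17, 9.14 and 8.93 against 8.42, 8.69 and 8.12 (-0.67 ± 0.19). UGT84A1, which acts on hydroxycinnamic acids, read 8.24, 7.95 and 7.84 against 7.66, 7.51 and 7.05 (-0.61 ± 0.19). The adjusted p of each was 0.9996 in limma. The list's median depended on 1 array. On NAA replicate 3 the list stood 0.12 above the NAA mean, and without that array its median was 0.01.

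Some UGTs of flavonoid metabolism were among the members with lower NAA+BA means, and were picked out after their values were seen. UGT79B1, which glycosylates anthocyanins, read 10.09, 9.72 and 9.32 against 9.34, 8.88 and 8.54, and the groups overlapped by 0.02 (-0.79 ± 0.26). The flavonol glycosyltransferase genes UGT78D1 (-0.48 ± 0.17) and UGT78D3 (-0.52 ± 0.18) were without overlap. DFR, which encodes dihydroflavonol reductase of the anthocyanin pathway, read 10.36, 10.02 and 9.31 against 9.59, 9.27 and 8.47 (-0.79 ± 0.35, overlapping). The 3 named members of the flavonoid synthesis list, DFR, UGT78D2 (-0.37) and TT7 (-0.33), all had lower means, with a median of -0.37. Here leaving out NAA replicate 3 moved the median to -0.62, since that array held the lowest value of its group for each of the 3, and leaving out NAA+BA replicate 3 moved it to -0.21.

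Nucleolar genes and those of RNA polymerase I, which make and assemble ribosomal RNA, were all slightly higher on average. Of 14 loci 9 were named, all 9 with positive differences between 0.20 and 0.46 (median 0.26), and 6 were without overlap, against 5.27% of all probe sets and 21.8% of the Data S1 entries. NRPA2, a large subunit of RNA polymerase I, read 9.54, 9.54 and 9.43 against 10.06, 9.82 and 10.02 (0.46 ± 0.23). NRPA1, the other large subunit, read 8.79, 8.72 and 8.56 against 8.87, 9.10 and 9.30 (0.40 ± 0.23). Their unadjusted p in limma were 0.0683 and 0.1167, and none of the 9 was below 0.05. These p rest on the spread within all groups, mock included. NRPA2 had an SD of 0.06 with NAA, 0.13 with NAA+BA and 0.54 on mock. For NRPA1 the SDs were 0.12, 0.22 and 0.52 in the same order. Of the 9, 8 are entries of Data S1 and 6 are named only through it. The list ran opposite to the type-A ARRs within NAA+BA. Its median stood 0.16, 0.27 and 0.48 above the NAA mean on replicates 1, 2 and 3, and 8 of the 9 genes were highest on replicate 3.

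The cell division genes named here did not follow. The list of cyclins, cyclin-dependent kinases and mitotic kinases held 45 loci, of which only the 3 Aurora kinase genes, which act in mitosis, were named. No cyclin or cyclin-dependent kinase had a named probe set. The Aurora genes had lower means with NAA+BA, AUR2 by -0.30, AUR3 by -0.26 and AUR1 by -0.24. AUR2 and AUR3 were without overlap, where 3.63% of all probe sets were lower without overlap. AUR2 read 9.63, 9.73 and 9.83 against 9.38, 9.35 and 9.56. Of 13 DNA replication genes, 9 had lower and 4 higher means (median -0.08, range -0.19 to 0.02). The split became 13 to 0 when arrays were centred on their medians. That centring put the median of all probe sets at -0.06 and 14892 of the 22810 below 0, so that the change of split is not particular to these genes. Of the 13 replication genes, 12 are entries of Data S1 and 11 are named only through it. ORC2, of the origin recognition complex, was the one replication gene without overlap (7.69% of the 13), at 8.09, 8.05 and 8.08 against 7.85, 7.93 and 7.88. Of 6 core histone genes 5 were lower on average (median -0.07), where 50.3% of all probe sets were. None of these genes had an unadjusted p under 0.05 in limma.

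**Figure D4:**
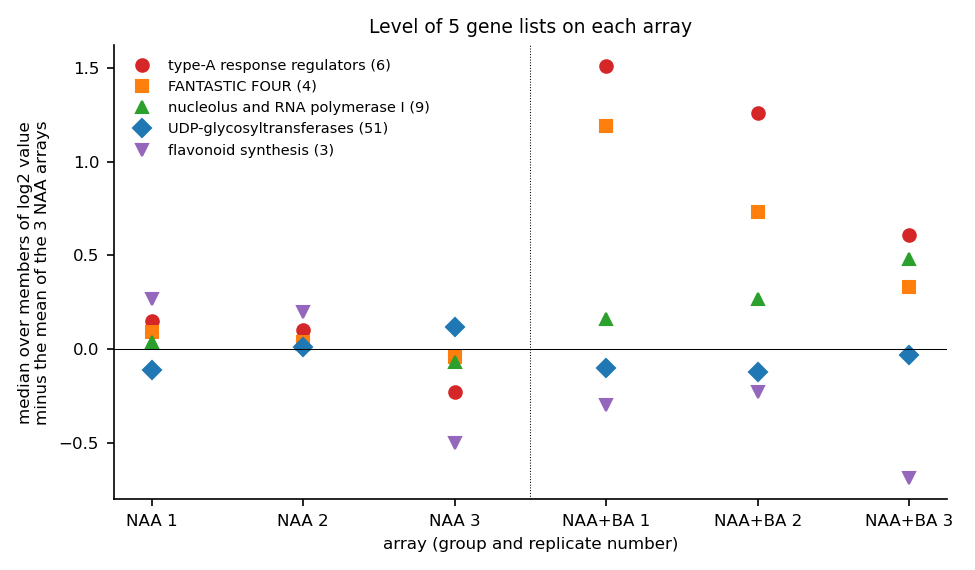
For each of the 6 arrays (x axis), the median over the members of 5 gene lists of the log2 value minus the mean of the 3 NAA arrays (y axis); numbers of members are in the legend. Within NAA+BA, the type-A ARRs and FAF genes are highest on replicate 1 and the nucleolar genes on replicate 3.

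The auxin response genes named here, for which both groups had the same apical NAA by their labels, were near 0. Of 32 Aux/IAA repressor loci 8 were named, 5 with higher and 3 with lower means, all between -0.07 and 0.18. None was without overlap, where 5.27% of all probe sets were higher and 3.63% lower without overlap. IAA31, IAA33 and IAA34 read below 5, the level of the filter on dim probe sets, on every array compared. Among 5 GH3 genes, whose products conjugate auxin to amino acids, GH3.3 was the highest, at 8.97, 8.91 and 8.87 against 9.38, 8.76 and 9.34 (0.24 ± 0.23). The reference gene UBC21 differed by 0.02 ± 0.12, and its sign turned under median centring. None of the 64 control probe sets of the array differed by more than 0.39 in either direction.

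Marker genes described the tissue only in part. LHCB4.1, LHCB4.2 and LHCB4.3, of the light-harvesting antenna, were expressed in both groups, LHCB4.1 at 12.73, 12.89 and 12.89 against 12.75, 13.04 and 12.91. The boundary gene CUC3 read 7.20, 6.97 and 6.23 against 7.42, 7.08 and 7.27 (0.46 ± 0.23), overlapping, and the meristem genes LAS (-0.10) and CLV3 (0.24) had overlapping arrays too. CLV3 was dim, at 3.84 to 4.72 over the 6 arrays. PYK10, strongly expressed in roots, was dim at 3.83 to 5.01 over the 6 arrays. No probe set was named for the markers of xylem, phloem, epidermis or flower, nor for CK receptors, phosphotransfer proteins or CK synthesis genes. Those groups are not analysed here.

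**Figure D5:**
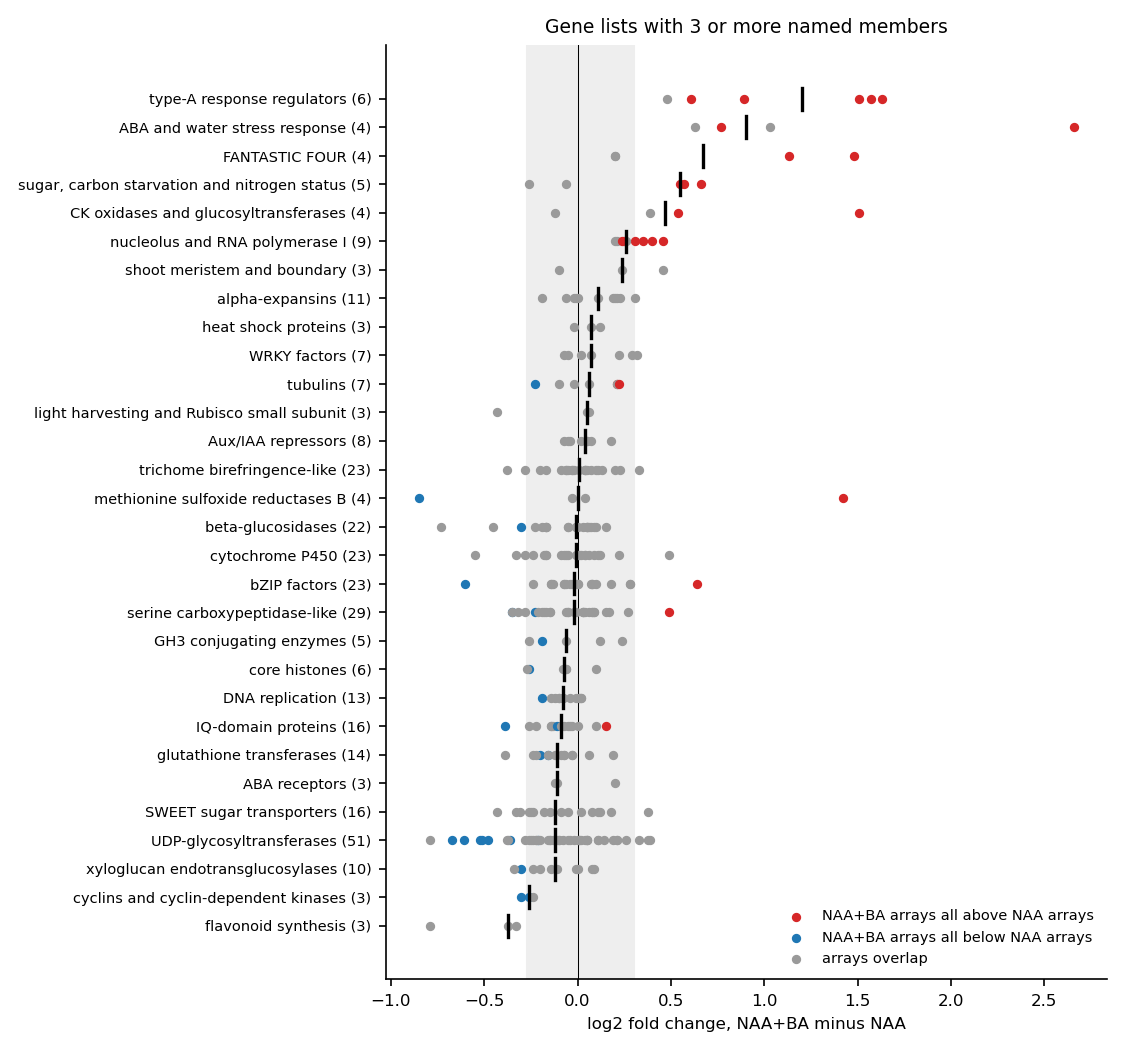
Log2 fold change (x axis, NAA+BA minus NAA) of each member of the 30 gene lists with at least 3 named members (y axis, number of members in brackets); black bars are medians, colours show whether the 3 and 3 arrays overlap, and the grey band holds the middle 90% of all probe sets. The type-A ARRs have the highest median, 1.2, and the flavonoid genes the lowest, -0.37.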

How the data were processed

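RNA from cauline buds was measured on 9 ATH1 arrays, 3 per group. The deposited values are log2 expression values that the authors made with RMA in R 2.15 and tested with limma. The version was not given in the sources used here for RMA or limma. No probe set was filtered, and no value was transformed. The number of arrays limits the precision. Replicates share a group by title.

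Group means were fitted to all 9 arrays with limma 3.58.1 in R 4.3.3 (lmFit, eBayes), and NAA+BA minus NAA was tested two-sided, with Benjamini-Hochberg adjustment across the whole table. Calls needed an adjusted p under 0.05 and a change of at least 2-fold. An exact permutation test of 3 against 3 arrays cannot go below 0.1 and was not used. Without overlap means that the lowest array of one group lay above the highest of the other.

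The platform annotation names 1 gene for 13436 probe sets, Data S1 names 98 more, and 9276 stay unnamed. Named are the called probe sets, the 12 with the smallest p and the 8 with the largest change per direction among named probe sets without overlap, leading transcripts of the study, up to 4 members per gene list, and further members only as such. Lists use 1 probe set per locus, the one with the highest mean, and are described by counts and medians without a test. The members and lists were chosen with earlier results of these data known. Columns of Data S1 that hold the authors' own comparisons served only to find which arrays they used. No sequence is printed, some genes of auxin transport are not reported, and coordinates were not used here.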

Additional observations from a re-analysis of the deposited data

How the results depend on the processing

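Calls were few under most settings. Against 2 called probe sets, the count was 1 with only the 6 arrays compared, with treat against 1.2-fold, at an adjusted p under 0.01, after quantile normalization again, after median centring and with 1 probe set per locus. It was 30 with array weights (29 higher, 1 lower), 1 to 4 when each array was left out in turn, and 4 without both arrays numbered 3. It stayed at 2 to 3 without a fold threshold, without control probe sets, with a trend and robust prior and with dim probe sets removed (kept above 5 on 3 or more arrays). With the replicate number as a block it was 7, namely CKX5, 267461_at, ARR15, HIS1-3, MSRB6, AT3G59270 and AT2G39920, and with the replicate block on the 6 arrays alone it was 1, namely 267461_at. The numbers were not taken to pair the arrays. Deviations from the group means correlated at 0.04, 0.30 and 0.36 between arrays of the same number, and NAA replicate 1 correlated better with NAA+BA replicate 2 (0.25) than with its own number. The other pairs of unlike number stood at 0.11, -0.09, -0.33, -0.25 and -0.36, so that the highest values belonged to pairs of the same number. Whether the numbers mark pairs was not tested. CKX5 was called under every setting tried except the replicate block on 6 arrays (adjusted p = 0.0688, limma). The probe sets at an unadjusted p under 0.05 went from 568 to 1064 without mock replicate 3 and to 1082 with the replicate block. They went to 1497 with the replicate block on the 6 arrays alone and to 2395 with array weights, and the cause was not tested.

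Of the genes followed, the sign turned for FAF2 (-0.06 to 0.48 when each array was left out), for LAS (-0.23 to 0.02) and for UBC21 (-0.04 to 0.10, and -0.03 with median centring and without both arrays numbered 3). FAF2 was at -0.05 without NAA replicate 3. Of 30 list medians, 14 changed sign under some setting, none of them among the type-A ARRs (1.04 to 1.40), FAF genes (0.53 to 0.95), stress response (0.78 to 1.26), nucleolar (0.20 to 0.38) and flavonoid genes (-0.62 to -0.21). Median centring moved all probe sets by -0.06, and the UGTs from 17 higher and 34 lower to 10 and 41. Without both arrays numbered 3 they stood at 23 and 28.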

Other observations

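Several large families lay near the centre of the table. Of 23 cytochrome P450 genes, 13 had lower and 10 higher means with NAA+BA (median -0.01), and of 22 beta-glucosidase genes 13 and 9 (median -0.01). BGLU28 was the beta-glucosidase with the largest difference, at 9.15, 8.59 and 8.07 with NAA against 7.47, 7.88 and 8.26 with NAA+BA (-0.73 ± 0.27, overlapping). Of 16 IQ-domain genes, whose products bind calmodulin, 14 had lower means (median -0.09), and IQD19 read 7.88, 7.63 and 7.69 against 7.36, 7.37 and 7.30, without overlap (-0.39 ± 0.17). Of 14 glutathione transferase genes 12 had lower means (median -0.11), where 50.3% of all probe sets did, and 2 of the 14 were without overlap, where 3.63% of all probe sets were. Alpha-expansins, which loosen cell walls, had a median of 0.11 over the 11 genes named of 26 loci. No expansin was without overlap, where 5.27% of all probe sets were higher and 3.63% lower without overlap. None of these genes passed adjustment in limma.

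Of the 46 probe sets at least 2-fold higher with NAA+BA, 25 carry a gene name and 7 are entries of Data S1. NAA+BA replicate 3 held the lowest NAA+BA value for 20 of the 46 and replicate 1 for 17, so that the low values of the type-A ARRs on replicate 3 were not shared by the whole set. The 6 probe sets at least 2-fold lower include THI2.2, which read 8.64, 8.18 and 7.73 with NAA against 8.04, 7.08 and 6.37 with NAA+BA (-1.02 ± 0.64, overlapping).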
